A study of Homo sapiens with 6 samples.

Results

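The genes described here were 35 genes of the endoplasmic reticulum (ER) that fold proteins, dispose of misfolded ones or sense ER stress, out of 60483 gene identifiers in the count tables. They were chosen by name, with earlier results of these data known, as rows whose Ensembl identifier mapped to the listed symbols. They comprised 19 folding genes, 9 genes of ER-associated degradation (ERAD) and 4 sensors or transcription factors. The other 3 were genes of protein transport into or out of the ER. RNA-seq had been performed on the human 253J line, which derives from a bladder cancer, in 3 FTO-knockdown libraries (replicates 4, 5 and 6) transfected with siRNA against FTO, and in 3 control libraries (replicates 1, 2 and 3) transfected with control siRNA. FTO is a demethylase that removes m6A, a methyl mark on adenosines of RNA. Although siRNA is what the labels give for either group, shRNA is what the methods of the study describe, so the agent is not settled. Whether the replicates were separate cultures is given in no source used here, so p-values cover just the spread among these libraries, and that spread may be technical.

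The total count was 13162731 to 15709975 in the FTO-knockdown libraries and 10991789 to 19891269 in the control libraries. FTO itself had 20.1, 20.6 and 15.7 CPM (counts scaled to library size) in FTO-knockdown libraries 4, 5 and 6, against 31.7, 21.4 and 31.0 CPM in control libraries 1, 2 and 3. It was lower in the knockdown (log2 fold change -0.57, SE 0.16, edgeR adjusted p = 0.0209), although control library 2 lay close to the knockdown libraries. Libraries 4 and 5 stood apart from library 6. The 13 fibroblast markers summed to 1028, 1323 and 312 CPM in FTO-knockdown libraries 4, 5 and 6 and to 289 to 308 CPM in the control libraries, and 6 of the 13 were at 10 CPM or more in both library 4 and library 5. The 14 leukocyte markers summed to 87.9, 101 and 10.7 CPM in FTO-knockdown libraries 4, 5 and 6 and to 9.14 to 10.3 CPM in the control libraries, while the defining leukocyte genes CD3E, CD3D and MS4A1 were listed at 0 in every library. The epithelial markers were abundant at 8259 to 10446 CPM in the knockdown and 9178 to 11736 CPM in the control libraries, whereas 7 of 10 urothelial markers, among them the uroplakins UPK1A, UPK1B, UPK2 and UPK3A, were under 1 CPM in all 6 libraries. The uroplakins, which mark urothelium, and the basal genes KRT5 and TP63 were thus at or near 0 in this labelled bladder line (UPK3B reached at most 2.67 CPM). The 10 urothelial markers still summed to 134.7 to 162.7 CPM in the knockdown and 155.1 to 187.7 CPM in the control libraries. Of these 10, 2 were at 10 CPM or more in all 6 libraries. The counts of called genes are therefore also given without libraries 4 and 5.

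The ER folds secreted and membrane proteins. BiP, the Hsp70 of its lumen, binds unfolded chains with the help of J proteins and exchange factors, calnexin and calreticulin hold glycoproteins, and disulfide isomerases form and shuffle disulfide bonds. When unfolded chains build up, the sensors ATF6, IRE1 and PERK start the unfolded protein response. ATF6 is cut to release a transcription factor that raises many chaperone genes, IRE1 splices the mRNA of XBP1 to yield a factor that raises ERAD and secretory genes, and PERK slows translation and favours the translation of ATF4. ERAD takes misfolded proteins out of the ER through a membrane complex of the HRD1 ligase, its adaptor SEL1L and the derlins.

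Many promoters of such genes carry an ER stress element, the sequence bound by ATF6 together with the factor NF-Y. A pair of forms was searched on both strands of the RefSeq promoter windows (GRCh38.p14), which run from 250 bases before to 50 bases after an annotated start. ERSE was spelled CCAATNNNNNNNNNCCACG and occurred in 27 of 35116 windows (0.077%), and ERSE-II was spelled ATTGGNCCACG and occurred in 19 windows (0.054%), both spellings sharing their CCACG end. At the level of genes, 44 of 27305 genes (0.161%) held either form. Of the 35 members, 31 had a window and 4 (PDIA3, DERL1, DERL3 and SEC24D) had no entry in the table, and 11 of the 31 (35.5%) held an element. The stretches below are shown because the genes that carry the same element had different fold changes. Each runs 5′ to 3′ on the strand of its gene and ends before the annotated start, with the element in capitals. An element on the opposite strand appears as its reverse complement.
HSPA5: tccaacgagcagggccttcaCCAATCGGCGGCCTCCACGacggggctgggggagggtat
CALR: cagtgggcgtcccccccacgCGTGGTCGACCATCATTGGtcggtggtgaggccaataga
CANX: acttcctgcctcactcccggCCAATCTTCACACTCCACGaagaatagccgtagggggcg
HYOU1: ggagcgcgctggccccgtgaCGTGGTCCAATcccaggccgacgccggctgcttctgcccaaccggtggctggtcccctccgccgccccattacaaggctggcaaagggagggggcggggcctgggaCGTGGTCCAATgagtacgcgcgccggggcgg
PDIA6: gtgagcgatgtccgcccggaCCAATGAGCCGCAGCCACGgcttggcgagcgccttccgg
HSP90B1: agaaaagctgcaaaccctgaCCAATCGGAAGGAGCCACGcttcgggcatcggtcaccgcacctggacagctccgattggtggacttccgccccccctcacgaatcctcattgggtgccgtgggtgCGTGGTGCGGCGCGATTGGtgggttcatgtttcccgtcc
CRELD2: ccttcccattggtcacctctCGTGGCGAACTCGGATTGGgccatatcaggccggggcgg
HERPUD1: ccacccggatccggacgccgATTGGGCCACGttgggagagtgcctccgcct
These stretches lie at chr9:125241371-125241429 (HSPA5, minus strand), chr19:12938364-12938422 (CALR, plus strand), chr5:179698758-179698816 (CANX, plus strand), chr11:119057254-119057410 (HYOU1, minus strand), chr2:10812833-10812891 (PDIA6, minus strand), chr12:103930196-103930359 (HSP90B1, plus strand), chr22:49918534-49918592 (CRELD2, plus strand) and chr16:56932005-56932055 (HERPUD1, plus strand). HSPA5, CALR, CANX, PDIA6, HSP90B1 and CRELD2 carry ERSE, with a pair of copies on opposite strands in HSP90B1. HYOU1 carries a pair of ERSE-II copies and HERPUD1 a single copy. The other 3 carriers were ERO1B and XBP1 with ERSE and SDF2L1 with ERSE-II.

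Of the 35 members, 34 passed the filter on low counts, and XBP1, which was listed at 0 in every library, did not. At an adjusted p under 0.05 in edgeR's quasi-likelihood test over 14965 genes, 13 of the 34 tested members were higher in FTO-knockdown cells and 3 were lower. Among all genes tested, 19.5% were higher and 17.9% lower. The members called higher were 8 folding genes (DNAJB9, DNAJC10, HYOU1, DNAJC3, HSPA5, CALR, CANX and DNAJB11), the ERAD genes SEL1L and DERL2, the factor CREB3L2, and the transport genes SEC24D and SEC61A1. The members called lower were CRELD2, HERPUD1 and DERL3. The median log2 fold change of the 34 members was 0.14, against 0.01 over all genes. With the library totals alone as scaling, which moved the median of all genes to 0.12, 14 members were higher and 2 lower, while the calls over all genes split into 4000 higher and 1824 lower, against 2913 and 2684 with TMM. Without control library 1, without control library 3 or without FTO-knockdown library 4, the number of members called higher was 8, 8 and 7. Over all genes tested, 1383 of 16181, 1687 of 15822 and 1702 of 15407 were higher in those fits, against 2913 of 14965 with all libraries. The number of members called lower was 1 without control library 1, 2 or 3 or FTO-knockdown library 4. Over all genes, 1612, 1597, 1810 and 1589 were lower in those fits, against 2684 with all libraries. Without libraries 4 and 5 together, 3 members were higher and 1 was lower, where 6.17% of all genes tested were higher and 5.89% lower.

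**Figure D1:**
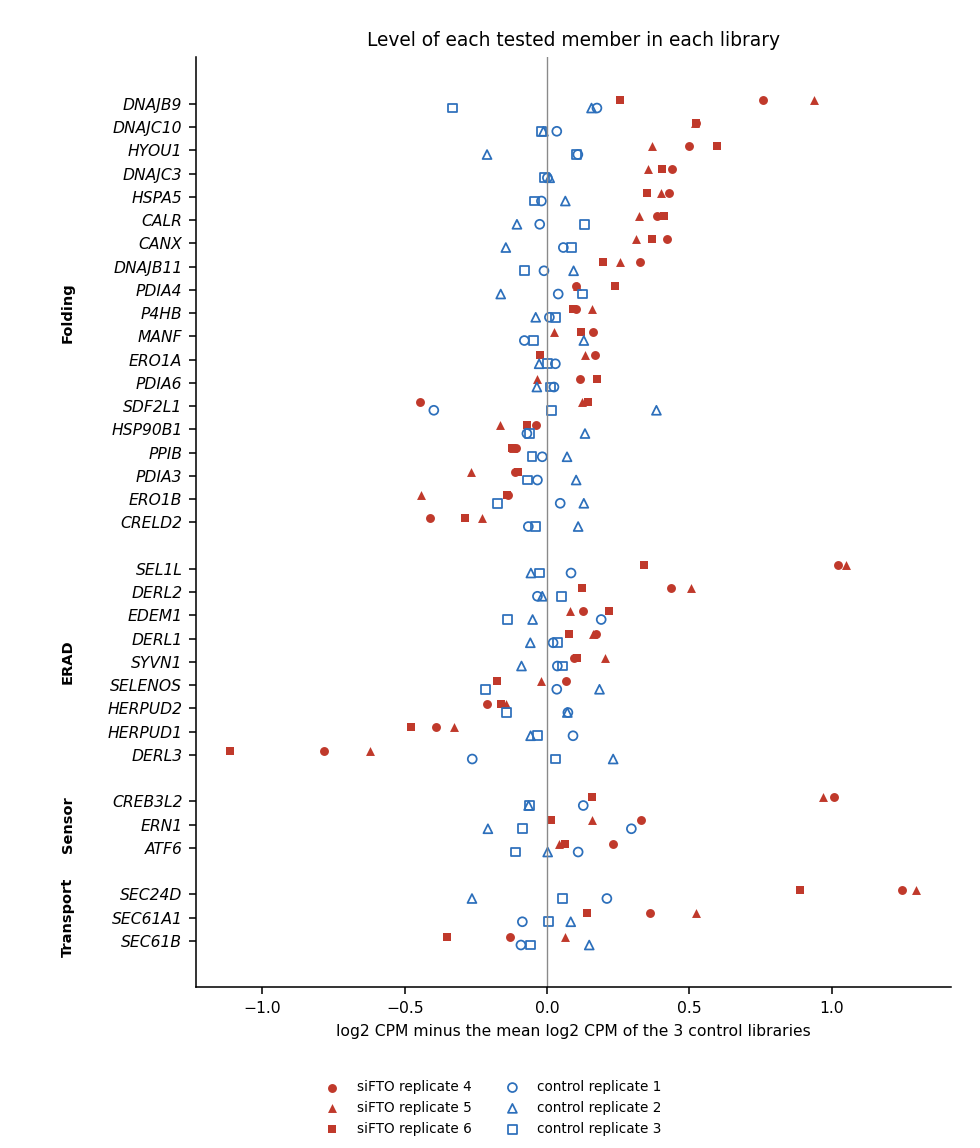
Level of each of the 34 tested members in every library, as log2 CPM minus the mean log2 CPM of the 3 control libraries (x axis), with members grouped by role (y axis), FTO-knockdown libraries as filled red symbols and control libraries as open blue symbols. The knockdown libraries lie close together for DNAJC10, DNAJC3, HSPA5, CALR and CANX, whereas library 6 (red square) lies well below libraries 4 and 5 for SEL1L and CREB3L2.

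Folding genes were the largest group, with a median log2 fold change of 0.12. Of the 19, 8 were higher (42.1%) and 1 was lower (5.26%) in FTO-knockdown cells, against 19.5% and 17.9% of all genes tested. Judged by the libraries themselves, 9 of the 19 had all 3 knockdown libraries above every control library and 3 had them all below, where 25.8% and 25.6% of all genes tested did so. The most abundant folding genes differed in their calls. Per kilobase of the longest annotated transcript, the level of CALR was 987 CPM in the knockdown and 764 CPM in the control group, that of HSP90B1 was 483 and 516 CPM, that of P4HB 385 and 355 CPM, and that of HSPA5 332 and 253 CPM.

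HSPA5 encodes BiP, the main Hsp70 of the ER lumen, whose level is a common readout of the unfolded protein response. Its values were 1329.8, 1304 and 1262 CPM in FTO-knockdown libraries 4, 5 and 6, against 976, 1034 and 959.9 CPM in control libraries 1, 2 and 3. Each knockdown library lay above each control library, and the log2 fold change was 0.39 (SE 0.08, edgeR adjusted p = 0.00408). HYOU1, an Hsp110 that exchanges the nucleotide of BiP, had 380.2, 347 and 407 CPM in the knockdown libraries and 290.2, 233 and 289 CPM in the control libraries. The groups did not overlap, at a log2 fold change of 0.48 (SE 0.11, edgeR adjusted p = 0.00695), and HYOU1 was the only folding gene called in all 15 alternative settings. A change in the share of cells that express a gene and a change in its RNA per cell cannot be told apart in such bulk samples.

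J proteins, which hand substrates to BiP and stimulate its ATPase, held the largest log2 fold changes of the folding genes, in DNAJB9 and DNAJC10. DNAJC10 (ERdj5), a J protein that also reduces disulfide bonds, had 90.1, 90.0 and 90.2 CPM in FTO-knockdown libraries 4, 5 and 6, against 64.2, 62.2 and 61.8 CPM in control libraries 1, 2 and 3. The spread within either group was small beside the difference, with a log2 fold change of 0.52 (SE 0.08, edgeR adjusted p = 0.0013). DNAJC3, a cochaperone that is also known as an inhibitor of PERK, had 82.8, 78.2 and 80.9 CPM in the knockdown libraries and 61.2, 61.5 and 60.7 CPM in the control libraries (log2 fold change 0.40, SE 0.08, edgeR adjusted p = 0.00414). DNAJB9 (ERdj4), a J protein whose gene is a known target of XBP1, had 13.5, 15.2 and 9.51 CPM in the knockdown libraries and 8.99, 8.87 and 6.33 CPM in the control libraries. Library 6 barely exceeded control libraries 1 and 2, and the log2 fold change of 0.67 (SE 0.20, edgeR adjusted p = 0.0262) lost its call, at an adjusted p of 0.0845 to 0.133, without control library 1, 2 or 3 or FTO-knockdown library 4 or 5. Leaving out libraries 4 and 5 together gave DNAJB9 a log2 fold change of 0.26 (adjusted p = 0.51). DNAJB11 (ERdj3) had 139.6 to 153 CPM in the knockdown and 115 to 130.1 CPM in the control libraries (log2 fold change 0.26, SE 0.08, edgeR adjusted p = 0.0333), and lost its call, at an adjusted p of 0.0827 to 0.151, without control library 1 or 3 or FTO-knockdown library 4 or 5. The calls on DNAJB9 and DNAJB11 were thus lost without single libraries, whereas those on DNAJC10 and DNAJC3 were kept without any 1 library. DNAJC10 and DNAJC3 lost their calls with the correction for exon length and GC content. Their log2 fold changes were then 0.12 (edgeR adjusted p = 0.335) and 0.21 (edgeR adjusted p = 0.0625).

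Both lectin chaperones, which bind glycoproteins with a trimmed sugar chain, were higher. CALR, the soluble calreticulin, had 1894, 1816 and 1927 CPM in FTO-knockdown libraries 4, 5 and 6, against 1424, 1348 and 1589.8 CPM in control libraries 1, 2 and 3 (log2 fold change 0.37, SE 0.09, edgeR adjusted p = 0.0083). For CANX, the membrane-bound calnexin, the values were 823, 763 and 794 CPM in the knockdown and 639.7, 556 and 653 CPM in the control libraries (log2 fold change 0.36, SE 0.09, edgeR adjusted p = 0.0106). Neither gene had overlapping groups, and without FTO-knockdown library 4 the adjusted p of CANX was 0.0563. PDIA3 (ERp57), the isomerase that works with both lectins, was not among them. It had 757 to 847 CPM in the knockdown and 868 to 977 CPM in the control libraries, with all knockdown values below the control values, and was not called (log2 fold change -0.16, SE 0.09, edgeR adjusted p = 0.167).

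CRELD2, an ER protein that is induced by ER stress, was the 1 folding gene called lower. Its values were 64.4, 73.2 and 70.2 CPM in FTO-knockdown libraries 4, 5 and 6, against 81.9, 92.5 and 83.3 CPM in control libraries 1, 2 and 3. The groups did not overlap (log2 fold change -0.31, SE 0.09, edgeR adjusted p = 0.0216), but the adjusted p was 0.0577 to 0.0958 without control library 1, 2 or 3 or FTO-knockdown library 4. The remaining 10 folding genes were not called, with log2 fold changes of -0.24 to 0.14 and adjusted p of 0.134 to 0.788. They were HSP90B1 (the Hsp90 of the lumen, GRP94), the isomerases PDIA3, PDIA4, PDIA6 and P4HB, the oxidases ERO1A and ERO1B that recharge them, the BiP partners SDF2L1 and MANF, and the prolyl isomerase PPIB. HSP90B1 had 1520.1, 1393 and 1485 CPM in the knockdown and 1486, 1712 and 1495 CPM in the control libraries, so that its groups overlapped (log2 fold change -0.09, SE 0.09, edgeR adjusted p = 0.414). SDF2L1 varied widely within both groups, from 33.0 to 49.6 CPM in the knockdown and from 34.1 to 58.7 CPM in the control libraries, and its change in either direction was not detectable with that spread.

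**Figure D2:**
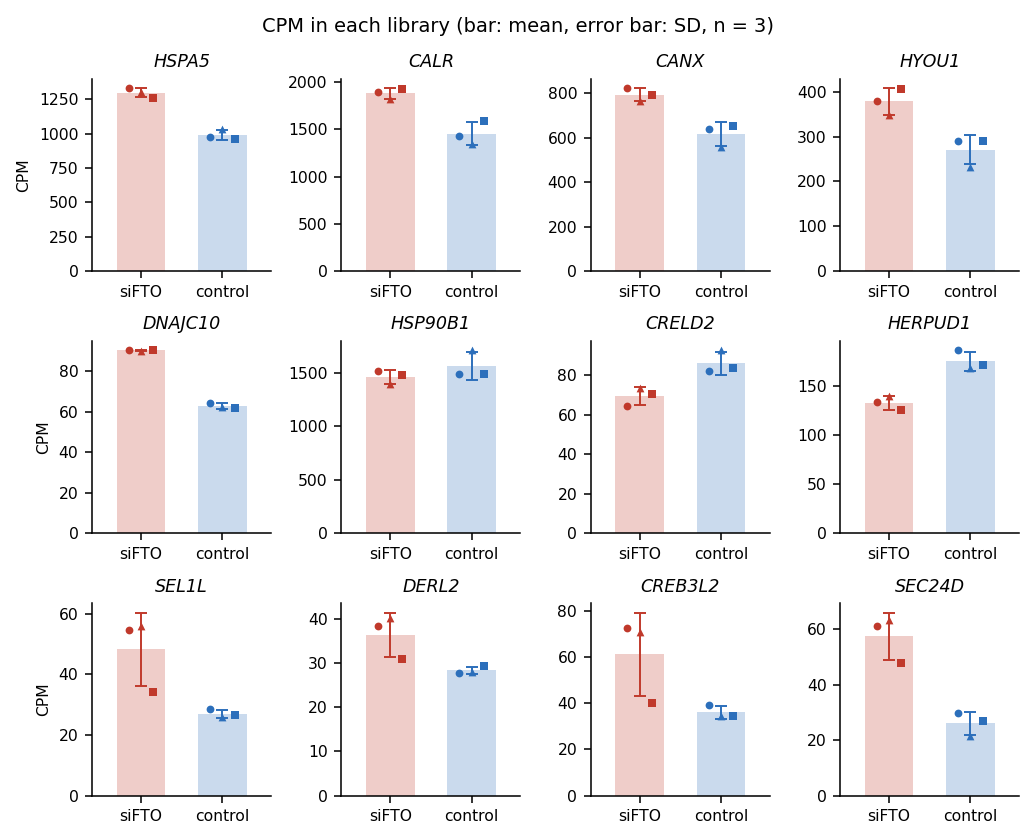
CPM (y axis, from 0) of 12 members in the FTO-knockdown (siFTO, red, left) and control (blue, right) libraries, with symbols for single libraries, bars for the mean and error bars for the SD of 3 libraries. HSPA5, CALR, CANX, HYOU1 and DNAJC10 were higher and CRELD2 and HERPUD1 lower with no overlap of the groups, HSP90B1 overlapped, and library 6 (square) was lower than libraries 4 and 5 for SEL1L, DERL2, CREB3L2 and SEC24D.

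Of 9 ERAD genes tested, 2 were higher (22.2%) and 2 lower (22.2%), close to the 19.5% and 17.9% of all genes, with a median log2 fold change of 0.13. All 3 knockdown libraries lay above every control library for 4 of the 9 and below for 2, where 25.8% and 25.6% of all genes did so. SEL1L, the adaptor that links substrates to the HRD1 ligase, had 54.6, 55.7 and 34.1 CPM in FTO-knockdown libraries 4, 5 and 6, against 28.6, 25.9 and 26.4 CPM in control libraries 1, 2 and 3. Library 6 was nearer to the controls than libraries 4 and 5 were, and the log2 fold change was 0.84 (SE 0.17, edgeR adjusted p = 0.00414), but 0.34 (adjusted p = 0.154) without libraries 4 and 5. DERL2, a derlin of the retrotranslocation channel, had 38.3, 40.2 and 30.8 CPM in the knockdown and 27.6, 28.0 and 29.3 CPM in the control libraries (log2 fold change 0.36, SE 0.11, edgeR adjusted p = 0.0289), and again library 6 was nearest to the controls. Its adjusted p was 0.077 to 0.11 without control library 1, 2 or 3 or FTO-knockdown library 4 or 5, and its log2 fold change was 0.12 (adjusted p = 0.634) without both of the last.

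HERPUD1, a membrane scaffold of the HRD1 complex whose transcript rises in many kinds of ER stress, went the other way. It had 133, 139 and 125 CPM in FTO-knockdown libraries 4, 5 and 6, against 186, 168 and 170.6 CPM in control libraries 1, 2 and 3. The groups were clearly separate (log2 fold change -0.40, SE 0.08, edgeR adjusted p = 0.0054), and HERPUD1 was called lower in all 15 alternative settings. DERL3, a derlin, was the least abundant tested member with 17 to 53 counts per library, and had 1.55, 1.73 and 1.23 CPM in the knockdown and 2.22, 3.14 and 2.73 CPM in the control libraries (log2 fold change -0.84, SE 0.25, edgeR adjusted p = 0.0239). Its adjusted p was 0.0581 to 0.113 without control library 1, 2 or 3 or FTO-knockdown library 4. In the annotation 77.0% of its exon bases overlap SMARCB1 on the opposite strand, a gene of 169 to 188 CPM in the knockdown and 251 to 266 CPM in the control libraries that was lower as well (log2 fold change -0.54, edgeR adjusted p = 0.00145). The strand setting of the counting is not given in the sources used here, so the reads of these 2 genes cannot be told apart. The other 5 ERAD genes were not called, with log2 fold changes of -0.17 to 0.14. They include SYVN1, the HRD1 ligase itself, with 68.3 to 73.6 CPM in the knockdown and 60.1 to 66.4 CPM in the control libraries (log2 fold change 0.13, SE 0.09, edgeR adjusted p = 0.236), and EDEM1, a lectin that marks glycoproteins for disposal, whose groups overlapped.

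Set side by side, the folding genes had a median log2 fold change of 0.12 and the ERAD genes one of 0.13, a difference of -0.02. No p is given for it, because the lists were chosen with earlier results known. Within each library, relative to the control mean, the median of the folding genes was 0.16, 0.13 and 0.18 in FTO-knockdown libraries 4, 5 and 6 and -0.02 to 0.06 in the control libraries, and that of the ERAD genes was 0.10, 0.08 and 0.08 in the knockdown and -0.05 to 0.04 in the control libraries. The folding median minus the ERAD median was 0.07, 0.05 and 0.10 in the knockdown and -0.04, 0.12 and 0.01 in the control libraries, so the groups overlapped in this difference. Medians taken within a library and medians of fitted values can fall on different genes, so these differences need not match the -0.02. With the correction for length and GC content, the difference between the fitted medians was 0.21. Without libraries 4 and 5, the median was 0.18 for folding and 0.08 for ERAD genes, against -0.009 over all genes. Without FTO-knockdown library 4 alone, 5 folding genes were higher, where 1702 of the 15407 genes tested were higher.

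Transcript length and base composition moved with these calls. The members called higher had longest transcripts of 4209 bases and a GC content of 41.6% (medians of 13), those called lower had 2946 bases and 54.5% (medians of 3), and those not called 3044 bases and 48.4% (medians of 18). With each library corrected for the merged exon length of a gene and for GC content, 8 of the 34 members were higher and 5 lower. Of all genes tested, 14.1% were higher and 20.0% lower in that fit. Of the folding genes 4 were then higher (DNAJB9, HYOU1, HSPA5 and CALR) and 3 lower (CRELD2, PDIA3 and ERO1B), and of the ERAD genes SEL1L was higher and HERPUD1 and DERL3 lower. The corrected log2 fold change was 0.12 for DNAJC10, 0.16 for CANX, 0.21 for DNAJC3, 0.06 for DNAJB11 and 0.14 for DERL2, none of which kept its call. Corrected values were 0.31 for HSPA5, 0.46 for CALR and -0.52 for HERPUD1. The corrected median was 0.12 for the folding and -0.09 for the ERAD genes.

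**Figure D3:**
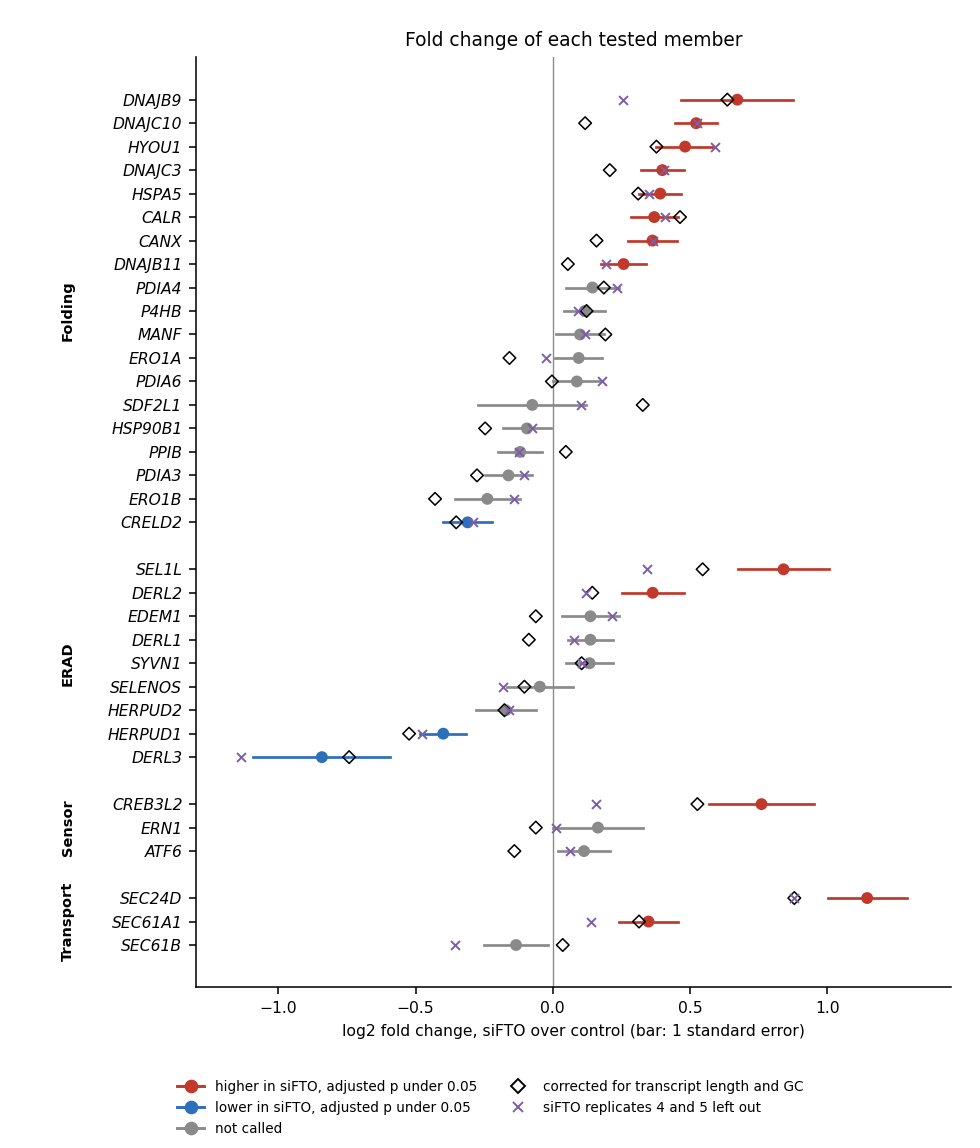
Log2 fold change of each tested member, FTO-knockdown over control (x axis), with bars of 1 SE. Colours give the call at an adjusted p under 0.05. Open diamonds give the value after correction for exon length (labelled as transcript length) and GC content. Crosses give the value without FTO-knockdown libraries 4 and 5. DNAJC10 and CANX moved towards 0 with the correction, SEL1L and CREB3L2 without libraries 4 and 5, and HYOU1, SEC24D and HERPUD1 kept their call in both.

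Neither of the sensors ERN1 and ATF6 passed the test. ERN1, which encodes IRE1, had 13.7, 12.2 and 11.04 CPM in FTO-knockdown libraries 4, 5 and 6, against 13.4, 9.47 and 10.3 CPM in control libraries 1, 2 and 3 (log2 fold change 0.16, SE 0.16, edgeR adjusted p = 0.446). For ATF6 the values were 74.7, 65.5 and 66.4 CPM in the knockdown and 68.6, 63.7 and 58.9 CPM in the control libraries (log2 fold change 0.11, SE 0.10, edgeR adjusted p = 0.365). The groups overlapped for both, and both log2 fold changes turned negative with the correction for length and GC content (-0.06 and -0.14). XBP1 was listed at 0 in all 6 libraries, as were 2719 of 19645 protein-coding identifiers (13.8%) and the mitochondrial genes, so no level can be given, and counts per gene hold no measure of its splicing. CREB3L2, a membrane-bound factor that is cut in the Golgi like ATF6 and drives secretory genes in the cartilage of mice, was the 1 member of this group to pass the test. It had 72.7, 70.7 and 40.3 CPM in the knockdown and 39.5, 34.6 and 34.6 CPM in the control libraries, so that library 6 lay just above control library 1 (log2 fold change 0.76, SE 0.19, edgeR adjusted p = 0.0117). Without FTO-knockdown libraries 4 and 5 its log2 fold change was 0.16 (adjusted p = 0.524), and its adjusted p was 0.0541 to 0.0938 without control library 1, 2 or 3 or FTO-knockdown library 4.

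Among the transport members, SEC24D had the largest log2 fold change of all 34 members. It encodes a cargo adaptor of COPII, the coat of vesicles that leave the ER, and had 61.2, 63.4 and 47.7 CPM in FTO-knockdown libraries 4, 5 and 6, against 29.8, 21.5 and 26.8 CPM in control libraries 1, 2 and 3. Every knockdown library was far above every control library, the log2 fold change was 1.15 (SE 0.14, edgeR adjusted p = 0.000751), and the call held in all 15 alternative settings, with 0.88 without libraries 4 and 5. SEC61A1, the pore of the translocon through which new chains enter, had 414, 463 and 355 CPM in the knockdown and 303, 341 and 323 CPM in the control libraries (log2 fold change 0.35, SE 0.11, edgeR adjusted p = 0.0264). Its adjusted p was 0.0627 to 0.124 without control library 1, 2 or 3 or FTO-knockdown library 4 or 5, and its log2 fold change was 0.14 without libraries 4 and 5. SEC61B, a small subunit of the same channel, had 71.1, 81.3 and 61.0 CPM in the knockdown and 73.0, 86.3 and 74.8 CPM in the control libraries and was not called (log2 fold change -0.13, SE 0.12, edgeR adjusted p = 0.384). Of the translocon pair only SEC61A1 passed the test, and the log2 fold change of SEC61B was 0.04 once corrected for length and GC content.

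Members that carry an ER stress element did not share a direction. Of the 10 carriers tested, 4 were higher (HSPA5, CALR, CANX and HYOU1), 2 lower (CRELD2 and HERPUD1) and 4 not called (HSP90B1, PDIA6, ERO1B and SDF2L1), with log2 fold changes of -0.40 to 0.48 and a median of 0.01. The 20 members with a window and no such element had 8 called higher, 12 not called and a median of 0.14. Among all genes tested, 19.5% were higher and 17.9% lower. With the correction for length and GC content, the carrier CANX was no longer called (log2 fold change 0.16, edgeR adjusted p = 0.149). The carrier ERO1B was then called lower (log2 fold change -0.43, edgeR adjusted p = 0.0197). Members without an element lost calls as well, namely DNAJC10 (corrected log2 fold change 0.12), DNAJC3 (0.21), DNAJB11 (0.06) and DERL2 (0.14). DNAJB9, SEL1L, CREB3L2 and SEC61A1, also without an element, stayed called higher. The ERSE of HSPA5 begins 66 bases before the start and that of CRELD2 80 bases before it, and their log2 fold changes were 0.39 and -0.31. ERSE-II begins 185 and 79 bases before the start of HYOU1 and 117 bases before that of HERPUD1, with log2 fold changes of 0.48 and -0.40. Likewise HSP90B1, with ERSE copies that begin 194 and 89 bases before its start, was not called. A match is a description of the letters and not of binding.

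**Figure D4:**
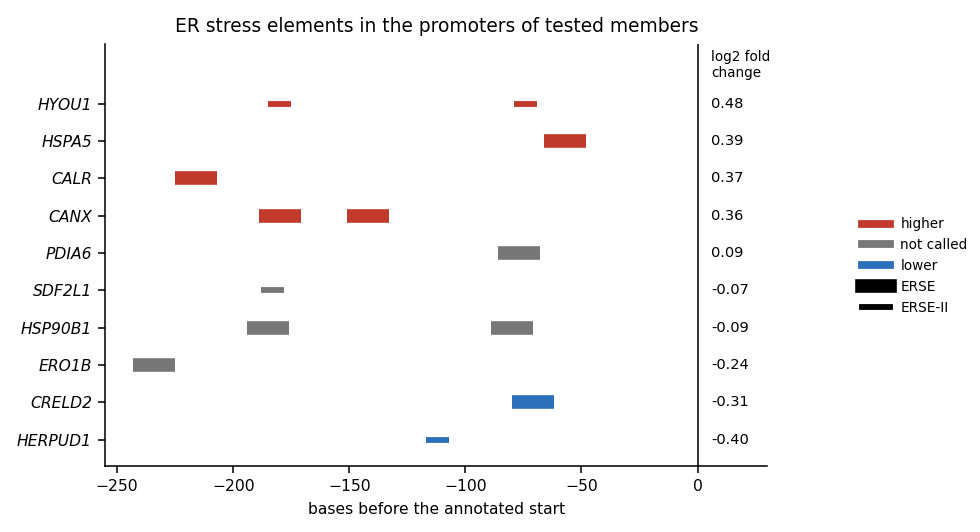
Position of ERSE (thick bars) and ERSE-II (thin bars) before the annotated start (x axis, bases) in the promoters of the 10 tested members that carry one (y axis), coloured by the call, with the log2 fold change at the right. The 2 bars of CANX are 1 element counted from 2 annotated starts. Elements lie at similar distances in genes that were higher (HSPA5, 66 bases) and lower (CRELD2, 80 bases).

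The other genes of the ER, in lists chosen with earlier results of these data known, were counted in the same way. Their shares are to be read against the 19.5% higher and 17.9% lower among all genes tested. Of 36 other folding genes tested, 3 were higher (8.33%) and 8 lower (22.2%), with a median log2 fold change of -0.11. The higher ones were the prolyl isomerase FKBP14 (1.001), the thioredoxin-like TMX1 (0.29) and UGGT1 (0.28), the sensor of glycoprotein folding. Lower ones included AGR2 (-0.73), a disulfide isomerase needed for mucins in mice, ERP29 (-0.65), the BiP exchange factor SIL1 (-0.56) and CNPY3 (-0.51), a chaperone of Toll-like receptors. Of 32 other ERAD genes, 4 were higher (12.5%) and 3 lower (9.38%) at a median of 0.10, namely the mannosidase EDEM3 (0.75), the p97 cofactors NPLOC4 (0.44) and UFD1 (0.39) and ERLIN2 (0.40) against the ligase RNF5 (-0.43), UBXN8 (-0.38) and UBAC2 (-0.36). Of 33 genes of translocation and glycosylation, 6 were higher (18.2%) and 4 lower (12.1%) at a median of -0.01, which is near the shares of all genes, with SEC61A2 (0.49), MAGT1 (0.45), SEC62 (0.41) and TRAM1 (0.33) among the higher and TMEM258 (-0.53), SSR2 (-0.41), SEC11A (-0.38) and SRP9 (-0.24) the lower ones. In the fit without libraries 4 and 5, edgeR called 1 other folding gene higher and 2 lower, 1 gene of translocation and glycosylation higher and 0 lower (2 and 3 at an unadjusted p under 0.05), and 0 other ERAD genes in either direction (4 higher and 1 lower unadjusted).

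Of 23 genes of export from the ER and retrieval to it, 13 were higher (56.5%) and 2 lower (8.7%). Over all genes tested, 19.5% were higher and 17.9% lower. The median log2 fold change of the list was 0.24. SEC24C, a COPII adaptor like SEC24D, had 59.0, 59.0 and 61.7 CPM in FTO-knockdown libraries 4, 5 and 6, against 29.9, 17.7 and 30.5 CPM in control libraries 1, 2 and 3 (log2 fold change 1.20, SE 0.17, edgeR adjusted p = 0.00115). The adaptor SEC24A (1.03) and the inner coat protein SEC23A (0.69) were higher too. SEC31A, of the outer coat, had 48.4, 55.1 and 18.7 CPM in the knockdown and 17.3, 14.7 and 16.4 CPM in the control libraries, so that only libraries 4 and 5 stood clear of the controls (log2 fold change 1.34, SE 0.31, edgeR adjusted p = 0.00821, and 0.21 without libraries 4 and 5). SEC31B (-0.46) and KDELR1 (-0.25), a receptor that returns resident proteins, were lower. Once corrected for length and GC content, 9 of the 23 were higher and 1 lower, where 14.1% and 20.0% of all genes tested were. The corrected median was 0.18, against -0.044 over all genes. Without libraries 4 and 5 the median was 0.21, against -0.009 over all genes.

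Of 14 other stress sensors and membrane-bound factors, 4 were higher (28.6%) and 2 lower (14.3%), against 19.5% and 17.9% of all genes. EIF2AK3, the sensor PERK, had 18.4, 17.4 and 18.7 CPM in FTO-knockdown libraries 4, 5 and 6, against 11.7, 9.41 and 10.2 CPM in control libraries 1, 2 and 3 (log2 fold change 0.81, SE 0.13, edgeR adjusted p = 0.00158). CREB3L3 (0.83) and CREB3 (0.35) were higher, and CREB3L4 (-0.86) and ATF6B (-0.50), a homologue of ATF6, were lower. CREB3L1, the closest relative of CREB3L2, had 26.8, 33.0 and 1.96 CPM in the knockdown and 3.24, 2.60 and 2.42 CPM in the control libraries. Its log2 fold change of 2.93 (SE 0.73, edgeR adjusted p = 0.0113) rested on libraries 4 and 5, the libraries with the higher fibroblast marker sums, and was -0.47 (adjusted p = 0.433) without them. In the list of the PERK, ATF4 and CHOP arm, 7 of 12 genes were lower and 2 higher. ATF4 itself had 505, 483 and 453 CPM in the knockdown and 1193, 1457 and 1196 CPM in the control libraries (log2 fold change -1.42, SE 0.10, edgeR adjusted p = 5.56e-05), while DDIT3, which encodes CHOP, was not called (log2 fold change -0.54, adjusted p = 0.171). With all libraries, the median log2 fold change was -0.993 for this arm and 0.072 for the other sensors and factors. In the fit without libraries 4 and 5, these medians were -1.485 and 0.027. HSPA5 and EIF2AK3 were thus higher in the same libraries in which ATF4 was lower.

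**Figure D5:**
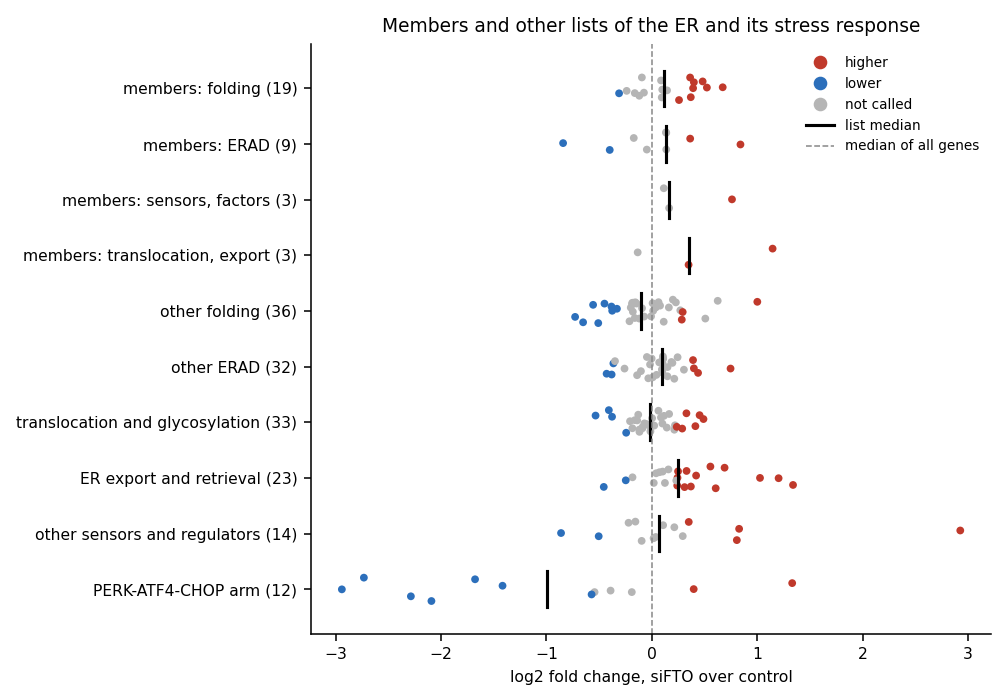
Log2 fold change, FTO-knockdown over control (x axis), of the members by role and of the other lists (y axis, number of genes tested in parentheses), with points coloured by the call, black lines for list medians and a dashed line for the median of all genes. Points of the export list lie mostly at the right (13 of 23 higher), and those of the PERK, ATF4 and CHOP arm mostly at the left (7 of 12 lower).

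Markers of fibroblasts and leukocytes moved with part of these results. Libraries 4 and 5 held COL1A1 at 151 and 197 CPM, COL6A3 at 178 and 219 CPM and CD74 at 60.8 and 75.0 CPM, against 17.0, 0.29 and 0.07 CPM in library 6 and at most 11.01, 0.26 and 0.26 CPM in any control library. The fibroblast genes COL3A1, PDGFRA and THY1 were at or under 0.14 CPM in all 6 libraries, as were CD3E, CD3D, MS4A1 and PTPRC of the leukocyte list. Among the members called higher, SEL1L, DERL2, CREB3L2, DNAJB9, SEC61A1 and SEC24D were clearly lower in library 6 than in libraries 4 and 5. Without those 2 libraries their log2 fold changes were 0.34, 0.12, 0.16, 0.26, 0.14 and 0.88. DNAJB11 was lower in library 6 by less (152.9, 145.7 and 139.6 CPM in libraries 4, 5 and 6), with 0.19 in that fit. The part of the marked cell types in these results was not tested. HSPA5, CALR, CANX, DNAJC3, DNAJC10 and HYOU1 were near the same level in library 6 as in libraries 4 and 5. Without libraries 4 and 5, a fit in which the lone knockdown library is assumed to vary like the controls, the log2 fold changes of these 6 were 0.35, 0.41, 0.37, 0.41, 0.53 and 0.59, and only those of DNAJC10 and HYOU1 passed the test. Markers of plasma cells, a secretory cell type rich in ER, summed to 266, 295 and 274 CPM in FTO-knockdown libraries 4, 5 and 6, against 235 to 247 CPM in the control libraries, so that library 6 went with libraries 4 and 5 as it did for HSPA5 and CALR. Nearly all of that sum was SDC1, a syndecan that epithelial cells express as well, with 260.4 to 288 CPM in the knockdown and 233 to 245 CPM in the control libraries (log2 fold change 0.20, edgeR adjusted p = 0.0742). PRDM1, a transcription factor of plasma cells, was called higher (log2 fold change 1.52, edgeR adjusted p = 0.00227), at 3.34 to 5.95 CPM in the knockdown and 1.54 to 1.80 CPM in the control libraries. The other 6 of the 8 plasma cell markers, among them the immunoglobulin genes IGKC and IGHG1 with JCHAIN and MZB1, were under 1 CPM in all 6 libraries.

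Some members share sequence with pseudogenes or overlap other genes. Of 6 pseudogenes of the members looked up, PDIA3P1 had 2.29 to 3.17 CPM in the knockdown and 1.90 to 3.15 CPM in the control libraries, and the other 5 were under 0.5 CPM in all 6 libraries. Besides DERL3, the members with the largest share of exon bases within another gene were PPIB (27.2%, SNX22), PDIA6 (25.2%, ATP6V1C2) and PDIA3 (14.8%, ELL3), all on the opposite strand. SNX22 and ATP6V1C2 were not called, and ELL3, at or under 0.363 CPM in every library, was not tested. Smaller overlaps on the opposite strand joined called members to neighbours that were called higher too. PNPLA8, which overlaps 3.5% of the exon bases of DNAJB9, had 22.8, 24.7 and 19.0 CPM in the knockdown and 17.4, 15.6 and 15.7 CPM in the control libraries (log2 fold change 0.45, edgeR adjusted p = 0.0179), a level above that of DNAJB9 itself. TBCCD1, which overlaps 6.6% of the exon bases of DNAJB11, had 15.4 to 17.5 CPM in the knockdown and 8.74 to 13.9 CPM in the control libraries (log2 fold change 0.50, edgeR adjusted p = 0.0384). Reads in these shared bases cannot be assigned to either gene without the strand setting.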

How the data were processed

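RNA-seq was analysed from 3 FTO-knockdown and 3 control libraries of 253J cells, grouped by their labels. The authors deposited 1 table of read counts per gene for each library, not normalized, and TopHat2 2.0.11 with HTSeq is what the submitters' notes list, beside hg19 and GRCh37 as builds. For HTSeq the version and strand setting, and the annotation, were not given in the sources used here. In R 4.3.3 the filterByExpr step of edgeR 4.0.16 (minimum count 10 and minimum total 15) removed low genes. TMM scaling was followed by quasi-likelihood fits whose sole term was the group. Tests were two-sided with Benjamini-Hochberg adjustment over 14965 genes and a threshold of 0.05. The SE is the log2 fold change divided by the square root of F. The script was tested on simulated data. CPM use TMM-scaled library sizes.

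Symbols were found for 56321 of 60483 identifiers, and lengths, GC content and overlaps came from GENCODE 29 (GRCh38), matched without version numbers, and the build of the counting itself is unsettled. Promoters came from RefSeq (GRCh38.p14). The members and lists were chosen with earlier results of these data known. Named in full were up to 8 folding and 4 ERAD members, taken by the size of a called change, the sensors and the transport members, and of other lists up to 4 called genes in each direction that averaged 3 or more in log2 CPM. Intestinal and other markers may be named. EIF2AK3, CREB3L1, SEC31A, SEC24C, ATF4 and DDIT3 got fuller values after their values were seen. Alternatives were other scalings (DESeq2-type, upper-quartile, library totals), no filter or at least 10 counts in every library, DESeq2 1.42.0 and limma 3.58.1 voom. Others left out each library, or both libraries 4 and 5. The last corrected each library for length and GC content by splines with 4 degrees of freedom. Its length was that of all annotated exons of a gene merged, and its GC content that of the longest transcript. The number of libraries limits precision.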

Additional observations from a re-analysis of the deposited data

How the results depend on the processing

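Of the 13 members called higher, 12 kept their call under the 7 alternatives of scaling, filter and tool, 7 under the leaving out of each library, 8 under the correction for length and GC content, and 3 without FTO-knockdown libraries 4 and 5. Of the 3 called lower, 1, 1, 3 and 1 did. HYOU1, SEC24D and HERPUD1 were called in all 15.

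The medians of the folding and ERAD genes were 0.091 and 0.11 with upper-quartile factors and 0.23 and 0.25 with library totals, where 0 folding genes were lower, with edgeR also at an unadjusted p under 0.05. With no filter, and with DESeq2, 1 ERAD gene was lower. With the correction for length and GC content, 8 members were higher and 5 lower, 4 folding genes were higher and 3 lower, 1 ERAD gene was higher, the ERAD median was -0.087 and the folding minus ERAD difference 0.21. Without libraries 4 and 5, edgeR called 970 genes higher and 926 lower, 3 members higher and 1 lower, 2 folding genes higher and 0 lower (6 and 0 at an unadjusted p under 0.05), and 0 ERAD genes higher and 1 lower (1 and 2 unadjusted). The medians were 0.18 and 0.078, and their difference 0.10.

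Leaving out 1 library gave 1383 to 3826 genes higher and 1589 to 2928 lower, 7 to 13 members higher and 1 to 3 lower, 5 to 8 folding genes higher and 0 to 1 lower (at least 1 at an unadjusted p in each), and 1 to 2 ERAD genes in each direction. The folding median was 0.11 to 0.15, the ERAD median 0.056 to 0.14, and the difference -0.027 to 0.063.

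Among members not called, the sign turned with library totals for HSP90B1 (0.0228), SDF2L1 (0.0454) and SELENOS (0.0698), and with the correction for length and GC content for PDIA6 (-0.0029), SDF2L1 (0.33), ERO1A (-0.16), PPIB (0.0477), EDEM1 (-0.0616), DERL1 (-0.087), ERN1 (-0.0616), ATF6 (-0.14) and SEC61B (0.0365). Without single libraries SDF2L1 ranged from -0.26 to 0.13 and SELENOS from -0.17 to 0.0512, and without libraries 4 and 5 SDF2L1 was at 0.10 and ERO1A at -0.0243. The causes were not tested. No paired analysis was possible because the groups share no replicate number.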

Other observations

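Genes of the intestinal lineage, some of which make heavy use of the ER, were expressed in these libraries although the cells are labelled as bladder cancer. MUC2, the gel-forming mucin of the gut and a large client of ER folding, had 24.6, 24.3 and 33.2 CPM in FTO-knockdown libraries 4, 5 and 6, against 6.12, 4.14 and 5.82 CPM in control libraries 1, 2 and 3 (log2 fold change 2.35, edgeR adjusted p = 7.06e-05). MUC2 was higher in all 3 knockdown libraries, library 6 included. The fibroblast marker sum of library 6 was near that of the controls, and the part of the marked cell types in the MUC2 values was not tested. KRT20, a keratin of gut and umbrella cells, had 20.2, 20.1 and 27.5 CPM in the knockdown and 4.54, 4.27 and 3.86 CPM in the control libraries (log2 fold change 2.43, edgeR adjusted p = 4.6e-05). CDX2, a transcription factor of the intestinal epithelium, went the other way with 139, 142 and 169 CPM in the knockdown and 244, 282 and 247 CPM in the control libraries (log2 fold change -0.78, edgeR adjusted p = 0.000832). Of the 10 intestinal markers tested, 2 were higher (20.0%), 2 lower (20.0%) and 6 not called, close to the 19.5% higher and 17.9% lower of all genes, and MUC2, KRT20 and CDX2 are named here after their values were seen. AGR2, the disulfide isomerase tied to mucin folding in mice, was lower in the same libraries in which MUC2 was higher, with 125, 115 and 139 CPM in the knockdown and 218, 249.9 and 160.4 CPM in the control libraries (log2 fold change -0.73, edgeR adjusted p = 0.00451).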
